A study of Mus musculus with 9 samples.

Results

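Annexins are cytosolic proteins that bind acidic membrane phospholipids when calcium rises, through a conserved core of repeats, and they differ from each other mainly in the N-terminal tail. They take part in membrane repair, endocytosis, exocytosis and the control of inflammation. The 9 genes described here (Anxa1, Anxa2, Anxa3, Anxa4, Anxa5, Anxa6, Anxa7, Anxa8 and Anxa11) were taken by symbol from a deposited table of 16867 genes, and all 9 were found in it. Of 3 further mouse annexin genes looked up by symbol, Anxa9 and Anxa13 are also listed.

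The series holds poly(A) RNA-seq of glomeruli, the filtration units of the kidney, isolated after perfusion with magnetic beads from 9 male C57BL/6 mice aged 30 to 35 days. The 4 Cosmc KO mice were Podo-Cre; Cosmc Y/flox, aged 35, 34, 31 and 30 days for Cosmc KO 1 to 4. The 5 controls were aged 35, 34, 31, 30 and 30 days, and controls 1, 4 and 5 were Podo-Cre; Cosmc Y/+, control 2 was Cosmc Y/flox without Cre, and control 3 was Cosmc Y/+ without Cre. Cosmc is the X-linked chaperone that the core 1 O-glycan enzyme needs, and Podo-Cre acts in podocytes, the epithelial cells that cover the glomerular capillaries. The isolate also holds endothelial, mesangial and parietal epithelial cells and carried-over tubule, in which no deletion is stated.

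Each value is a normalized read count, meaning the authors' gene count divided by a size factor of its library, and library totals ranged from 31.5 to 58.1 M reads. Group differences are given as log2 fold changes computed after adding 1 to each value, positive where Cosmc KO was higher, with the SE from limma fitted to 16764 genes. A gene is called where its Benjamini-Hochberg adjusted p is under 0.05. The deleted gene, C1galt1c1, which encodes Cosmc, read 1123, 939, 1030 and 751 in Cosmc KO 1 to 4, against 1552, 1508, 1487, 1385 and 1409 in controls 1 to 5 (log2 fold change -0.63 ± 0.11, adjusted p = 0.0111). With the Cre-carrying controls only, its adjusted p was 0.0816, and with Cosmc KO 2 and 3 both left out it was 0.0759. Defining podocyte markers were abundant in both groups, among them Nphs1 (nephrin) at 49871 ± 18852 in Cosmc KO (SD, n = 4) and 73973 ± 11553 in controls (SD, n = 5). Marker lists of several cell types moved with the groups. Of 12 podocyte markers 7 fell and 0 rose, with summed values of 332386 to 894375 in Cosmc KO and 833699 to 1225858 in controls. None of 8 proximal tubule markers was called, although all 8 had positive log2 fold changes, and their sums were 65567 to 610810 in Cosmc KO and 42159 to 201806 in controls. Of 8 macrophage markers 4 rose, with sums of 9951 to 13147 in Cosmc KO and 4469 to 12151 in controls. Of 7 parietal epithelial markers 3 rose and 1 fell, with sums of 15356 to 19557 in Cosmc KO and 7797 to 10742 in controls. Sums are dominated by the most abundant markers. As mean log2 values, podocyte markers were 13.4 to 14.7 in Cosmc KO and 14.8 to 15.4 in controls, without overlap. Macrophage markers were 9.07 to 9.59 in Cosmc KO and 7.44 to 8.55 in controls, also without overlap. All 5 red blood cell markers had negative log2 fold changes (median -1.40), none was called, and their sums were 4906 to 29833 in Cosmc KO and 26403 to 45679 in controls. In lists of other cells, Acta2 and Tagln rose among 8 mesangial and vascular muscle markers, Eng rose among 10 endothelial markers, Pvalb fell among 8 distal nephron markers, and 0 of 3 neutrophil markers was called. No marker of these lists was at 0 in any library. Fewer cells of a type and less RNA per cell cannot be told apart in such material. The part of these cell types in the annexin results was not tested. Fits with the proximal tubule level, the mean log2 value of its 8 markers, as a covariate are given below. That level was 11.3 to 14.5 in Cosmc KO and 10.6 to 12.9 in controls. It thus runs partly with the groups, and these fits cannot separate tubule content from genotype. Within its group, Cosmc KO 1 had the highest podocyte sum (894375) and the lowest proximal tubule sum (65567).

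Against this background Anxa1, Anxa6 and Anxa8 rose in Cosmc KO glomeruli, Anxa4 fell, and the other 5 annexins were not called. Over all tested genes 7.74% were called, 4.16% higher and 3.58% lower. The median log2 fold change was 0.25 over the 9 annexins and 0.00 over all genes, and 7 of the 9 annexins had a positive value, as did 50.5% of all genes. On the recovered reads, edgeR's quasi-likelihood test called the same 4 annexins, where 8.69% of genes were called, 4.3% higher and 4.38% lower. DESeq2 called Anxa5 and Anxa11 higher in addition, where 16% of genes were called, 8.55% higher and 7.43% lower. Anxa8 entered the test only through the Cosmc KO libraries, since it reached the minimum value of 10 in all 4 of them and in 0 of the 5 controls. The other 8 annexins reached it in every library.

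The 250 bases before the RefSeq start are shown for the annexin with the largest increase (Anxa8), the more abundant one that rose (Anxa1), the one that fell (Anxa4) and the one with the highest read count (Anxa2), so that the promoters of genes that behaved differently can be read side by side. They are RefSeq sequences of GRCm38.p6, written 5′ to 3′ on the gene's own strand, from chr14:34085729-34085978 (plus strand), chr19:20390672-20390921 (minus), chr6:86793585-86793834 (minus) and chr9:69453433-69453682 (plus).
Anxa8: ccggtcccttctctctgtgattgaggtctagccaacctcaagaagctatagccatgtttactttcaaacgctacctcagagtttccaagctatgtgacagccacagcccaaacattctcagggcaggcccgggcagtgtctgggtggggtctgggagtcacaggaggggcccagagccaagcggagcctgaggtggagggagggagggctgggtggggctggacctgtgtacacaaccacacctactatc
Anxa1: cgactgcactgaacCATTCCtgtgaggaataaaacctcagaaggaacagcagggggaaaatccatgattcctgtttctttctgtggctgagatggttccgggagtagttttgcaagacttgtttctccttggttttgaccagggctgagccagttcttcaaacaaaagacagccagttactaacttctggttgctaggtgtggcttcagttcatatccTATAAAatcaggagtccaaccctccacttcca
Anxa4: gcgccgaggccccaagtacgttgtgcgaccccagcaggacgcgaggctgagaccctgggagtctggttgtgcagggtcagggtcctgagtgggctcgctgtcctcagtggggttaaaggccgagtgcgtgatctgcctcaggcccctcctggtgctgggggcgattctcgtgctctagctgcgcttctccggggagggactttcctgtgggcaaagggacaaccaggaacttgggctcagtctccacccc
Anxa2: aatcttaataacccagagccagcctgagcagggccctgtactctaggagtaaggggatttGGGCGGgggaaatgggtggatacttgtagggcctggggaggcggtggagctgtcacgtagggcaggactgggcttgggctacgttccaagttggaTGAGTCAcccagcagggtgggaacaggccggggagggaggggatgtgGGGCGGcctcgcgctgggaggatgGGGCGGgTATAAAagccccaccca
Capitals mark matches, on either strand, to the AP-1 site TGANTCA, the TEAD site GGAATG, the GC box GGGCGG and the TATA box TATAAA. In Anxa2 the AP-1 match starts 95 bases before the start, a TATA box match starts 17 bases before it, and 3 GC boxes are present. In Anxa1 a TATA box match starts 32 bases before the start and a TEAD match 236 bases before it. The windows of Anxa8 and Anxa4 hold no match to any of the 4 motifs. Among 32851 RefSeq windows of this length, 6.75% hold the AP-1 letters, 12.6% the TEAD letters, 32.7% the GC box and 12.4% the TATA box. RefSeq gives Anxa4 a second start, and the window before it (chr6:86775115-86775364, not printed) holds no match either and is 42.0% G and C. The printed Anxa4 window, which precedes the upstream start, is 64.8% G and C, that of Anxa8 58.0%, that of Anxa1 46.0% and that of Anxa2 62.4%, beside a median of 52.4% over all windows. By the gene positions given below, the Anxa1 window lies wholly inside the gene, and the Anxa2 window ends inside it. These windows are thus upstream of the RefSeq start only. Promoter windows were matched for 7 of the 9 annexins, and not for Anxa3 or for Anxa6, another annexin that rose.

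Anxa1 encodes a phospholipid-binding protein that is induced by glucocorticoids and dampens inflammation through formyl peptide receptors. It lies on chromosome 19 from 20373428 to 20390944 (GRCm38, minus strand). Its normalized counts were 14188, 10652, 10766 and 11308 in Cosmc KO 1 to 4, against 7779.8, 7897, 7726, 9017 and 8941 in controls 1 to 5. Every Cosmc KO library lay above every control, and Cosmc KO 1 was the highest. The means were 11728 ± 1665 (SD, n = 4) in Cosmc KO and 8272 ± 649 (SD, n = 5) in controls, and the log2 fold change was 0.50 ± 0.10 (95% interval 0.27 to 0.73, adjusted p = 0.0203). Non-overlapping groups in this direction were found for 5.83% of tested genes. The rise was not called without control 1 (0.48, adjusted p = 0.0503) or with the Cre-carrying controls only (0.44, adjusted p = 0.12). With the proximal tubule level as a covariate it was 0.64 (adjusted p = 0.00387).

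**Figure D1:**
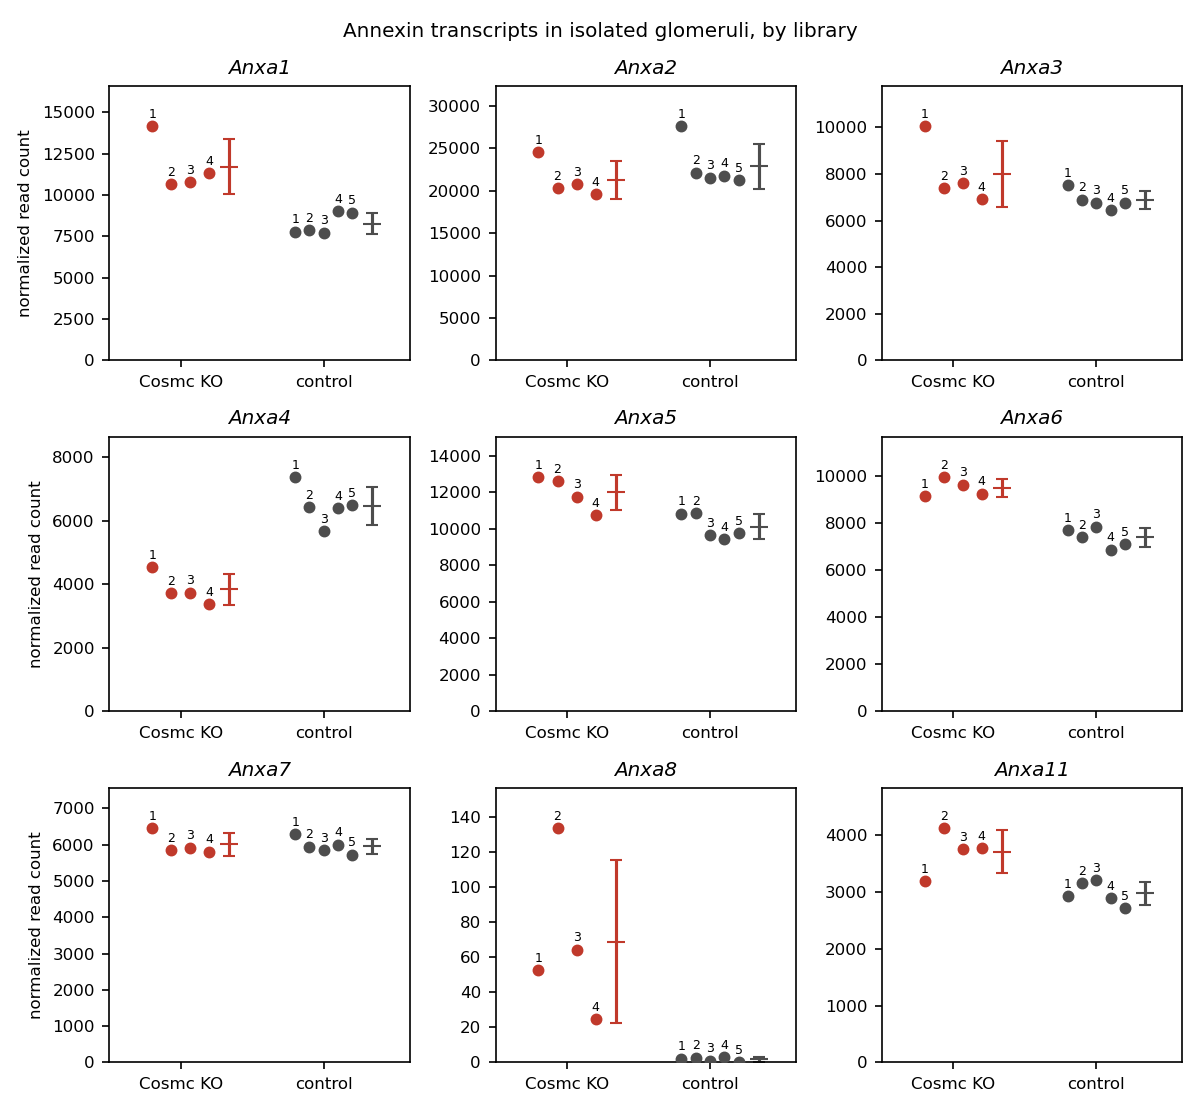
Normalized read counts of the 9 annexins, with 1 panel for each gene and every vertical axis starting at 0. Points are libraries, numbered as in the labels, with Cosmc KO (n = 4) left and control (n = 5) right, and bars give the mean ± SD. For Anxa1, Anxa6 and Anxa8 all Cosmc KO points lie above the control points, for Anxa4 all lie below, and the groups overlap for the other 5 genes.

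Anxa8 encodes an annexin of late endosomal membranes and lies on chromosome 14 from 34085981 to 34100571 (plus strand). It had 43, 149, 84 and 36 reads in Cosmc KO 1 to 4, against 2, 2, 1, 3 and 0 reads in controls 1 to 5. A count of 0 allows up to 3 reads, a value of 3.24 in control 5. As normalized counts these were 52.7, 134, 64.2 and 24.8 in Cosmc KO and 2.12, 2.73, 1.00, 3.15 and 0 in controls. The gene was thus at the edge of detection in every control and present at a low level in every Cosmc KO library. Its mean was 68.8 ± 46.3 (SD, n = 4) in Cosmc KO and 1.80 ± 1.29 (SD, n = 5) in controls, and the log2 fold change was 4.56 ± 0.55 (adjusted p = 0.00161). Anxa8 passed the filter on low values only through the Cosmc KO libraries, so this p is not independent support for its rise. In limma with no filter on low values the adjusted p was 0.00166. Summed over libraries, 312 reads in Cosmc KO and 8 in controls gave a ratio per library size of 37.9, with an exact binomial 95% interval of 19.0 to 88.5 that covers counting error only. Among Cosmc KO libraries Anxa8 was highest in Cosmc KO 2 and next highest in Cosmc KO 3, whose proximal tubule sums (610810 and 498041) were also the largest of the 9. Cosmc KO 1, with a tubule sum of 65567, read 52.7 and Cosmc KO 4, with 224284, read 24.8. Controls 2 and 3, with tubule sums of 201806 and 178190, read 2.73 and 1.00. With the proximal tubule level as a covariate the log2 fold change was 4.06 (adjusted p = 0.00392). That fit cannot separate tubule content from genotype, and the part of tubule in the Anxa8 reads was not tested.

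Anxa6, which differs from the other annexins in having a duplicated core and acts on endosomes and cholesterol transport, lies on chromosome 11 from 54979108 to 55033445 (minus strand). It read 9149.6, 9981, 9654 and 9272 in Cosmc KO 1 to 4, against 7727, 7412, 7867, 6887 and 7119 in controls 1 to 5. The groups did not overlap, and Cosmc KO 1 was the lowest of its group. The means were 9514 ± 378 (SD, n = 4) in Cosmc KO and 7402 ± 408 (SD, n = 5) in controls, with a log2 fold change of 0.36 ± 0.07 (adjusted p = 0.0134). The change was similar in size but not called without Cosmc KO 3 (0.36, adjusted p = 0.0569), with the Cre-carrying controls only (0.39, adjusted p = 0.0643), with the tubule covariate (0.32, adjusted p = 0.0528), and with Cosmc KO 2 and 3 both left out (0.32, adjusted p = 0.135).

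Anxa4 was the annexin that fell. It encodes a protein of epithelial cells that self-associates on membranes and is known for stabilizing them, and it lies on chromosome 6 from 86736840 to 86793584 (minus strand). Normalized counts were 4531, 3708, 3734 and 3379 in Cosmc KO 1 to 4, against 7372, 6411, 5675 and 6381 in controls 1 to 4 and 6478 in control 5. All 4 Cosmc KO libraries lay below the lowest control. Among them was Cosmc KO 1, whose podocyte sum was within the control range. The mean log2 value of its podocyte markers (14.7) was below that of every control (14.8 to 15.4). Non-overlap in this direction was found for 6.11% of tested genes. The mean was 3838 ± 490 (SD, n = 4) in Cosmc KO and 6463 ± 603 (SD, n = 5) in controls, and the log2 fold change was -0.76 ± 0.10 (95% interval -0.98 to -0.53, adjusted p = 0.00278), or 59.2% of the control level. The fall was called under each of the 22 alternative settings, with log2 fold changes of -0.84 to -0.62 and adjusted p of up to 0.0445. The authors' deposited table gives it a log2 fold change of -0.75. Its exons overlap those of Gm44036 on the other strand, which was not analysed here.

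Anxa5 and Anxa11 had positive log2 fold changes that did not pass in the main test. Anxa5, the phosphatidylserine-binding protein used as a stain for dying cells, lies on chromosome 3 (36448923 to 36475894). It read 12834, 12605, 11745 and 10739 in Cosmc KO 1 to 4, against 10822, 10854, 9629.6, 9424 and 9749 in controls 1 to 5. Cosmc KO 4 lay inside the control range and the other 3 above it. The log2 fold change was 0.25 ± 0.08 (adjusted p = 0.0997). Anxa11, which links RNA granules to lysosomes, lies on chromosome 14 (25842156 to 25886804). It read 3191, 4123, 3753 and 3761 in Cosmc KO 1 to 4, against 2917, 3145, 3208, 2881 and 2717 in controls 1 to 5. Here Cosmc KO 1 was the library inside the control range, and the log2 fold change was 0.31 ± 0.09 (adjusted p = 0.0579). With age as a factor both passed, Anxa5 at 0.22 (adjusted p = 0.0407) and Anxa11 at 0.30 (adjusted p = 0.0235). That fit called 5 annexins higher and 1 lower, where 21.8% of tested genes were called, 11.9% higher and 9.91% lower. Without Cosmc KO 1, Anxa11 passed (0.38, adjusted p = 0.00825) and Anxa5 did not (0.21, adjusted p = 0.0883), where 29.1% of genes were called, 14.4% higher and 14.6% lower. The authors' deposited table, made from the same 9 libraries, calls both higher, with adjusted p of 0.0409 for Anxa5 and 0.0169 for Anxa11. DESeq2 on the recovered reads gave nearly the same adjusted p, 0.0400 and 0.0167, so these are not separate findings. In all, the authors' deposited table calls 5 of the 9 annexins higher and 1 lower, where 16% of its genes are called, 8.58% higher and 7.42% lower.

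Anxa2, Anxa3 and Anxa7 were not called. Anxa2, which pairs with S100a10 at the cell surface and promotes plasmin formation there, lies on chromosome 9 (69453620 to 69491795). It read 24568, 20342, 20782 and 19562 in Cosmc KO 1 to 4, against 27651, 22150, 21532, 21797 and 21226 in controls 1 to 5. Library 1 of each group was the highest, and the log2 fold change was -0.10 ± 0.11 (95% interval -0.35 to 0.15, adjusted p = 0.576). Gm16144, an antisense gene whose exons overlap those of Anxa2, ranged from 3.06 to 8.58 in Cosmc KO and from 13.0 to 26.4 in controls. It reached the minimum value of 10 only in the control libraries, and the strand used in counting is not given in the sources used here. Anxa3, on chromosome 5 (96793339 to 96845966), read 10067, 7395, 7615 and 6922 in Cosmc KO 1 to 4, against 7515, 6894, 6777, 6457 and 6765 in controls 1 to 5. Cosmc KO 1 was far above the other 8 libraries, and the log2 fold change of 0.20 ± 0.11 (adjusted p = 0.249) was 0.09 without it. Anxa7, a calcium-dependent membrane fusion protein also called synexin, lies on chromosome 14 (20455260 to 20480133). Its range was 5807 to 6464 in Cosmc KO and 5729 to 6284 in controls, with means of 6008 ± 308 in Cosmc KO and 5963 ± 207 in controls. The groups overlapped, and the 95% interval of its log2 fold change was -0.13 to 0.15.

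**Figure D2:**
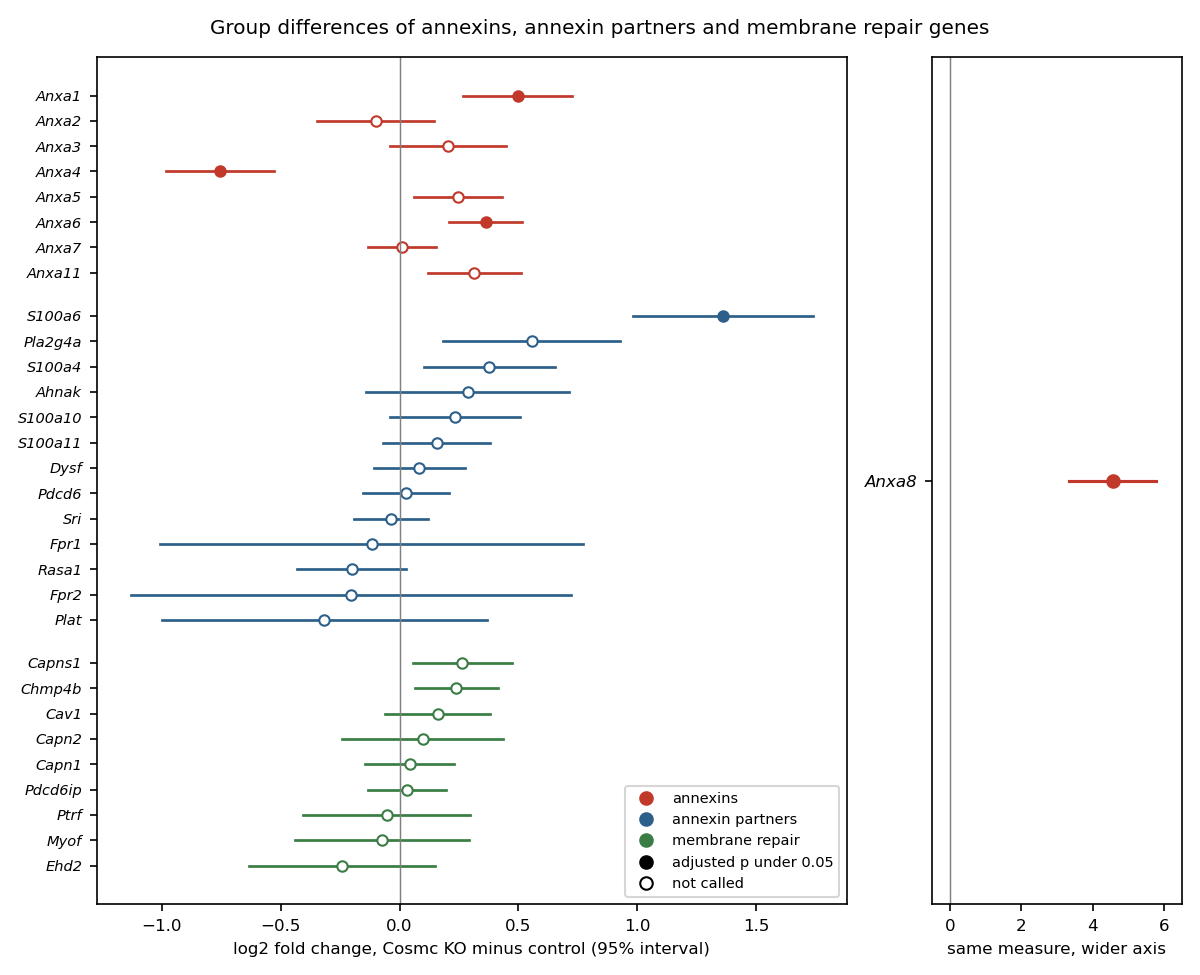
Log2 fold changes, Cosmc KO minus control, with 95% intervals from limma for 8 annexins, 13 annexin partners and 9 membrane repair genes, and for Anxa8 on a wider axis at the right. Filled points passed an adjusted p of 0.05. Anxa4 lies to the left of 0, Anxa1, Anxa6, Anxa8 and S100a6 to the right, and no membrane repair gene is filled.

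Mice numbered alike in the labels were also of equal age, which gives 4 pairs in which the difference can be read. Anxa4 was lower in the Cosmc KO animal of every pair, by log2 differences of -0.92 at 30 days, -0.60 at 31 days, -0.79 at 34 days and -0.70 at 35 days. Anxa1 was higher in every pair, by 0.33, 0.48, 0.43 and 0.87 at the same ages. Anxa3, Anxa5, Anxa6, Anxa8 and Anxa11 were also higher in 4 of 4 pairs, Anxa2 was lower in 4 of 4, with differences of -0.17 to -0.05, and Anxa7 was higher in 2 and lower in 2. The share of all genes with the same direction in 4 of 4 pairs was not counted. These counts therefore do not show a change of Anxa2, Anxa3, Anxa5 or Anxa11, which were not called in the main test. The pair aged 35 days had the widest difference for Anxa1 and Anxa3 (0.42) and the narrowest for Anxa6 (0.24) and Anxa11 (0.13). At 30 days there was a second control, control 5, whose Anxa4 value (6478) and Anxa1 value (8941) lay close to those of control 4 (6381 and 9017). Each other age has 1 animal of each group. With these pairs entered as a replicate block, limma called the same 4 annexins, 3 higher and 1 lower, where 16.7% of all tested genes were called, 9.59% higher and 7.14% lower.

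**Figure D3:**
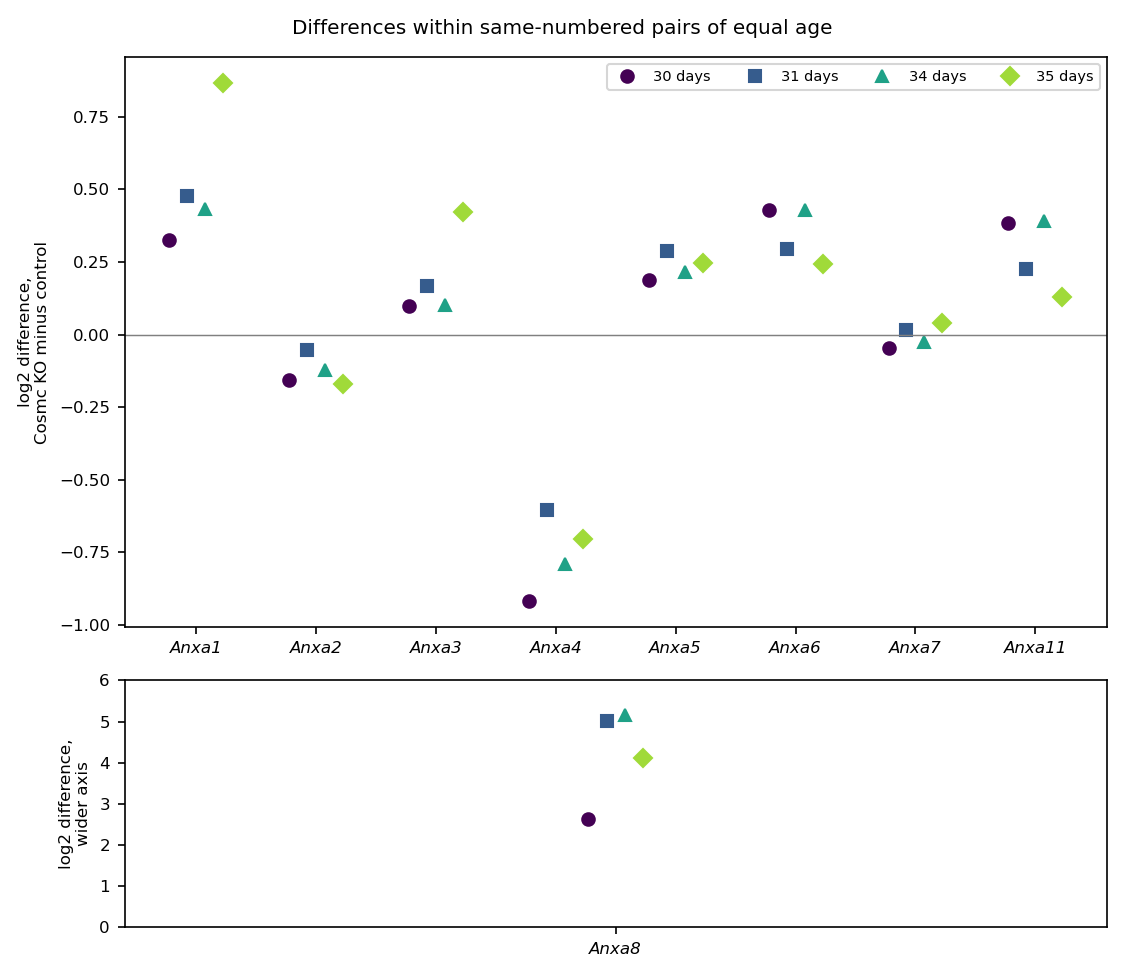
Log2 difference, Cosmc KO minus control, within each same-numbered pair of mice of equal age, with ages in days shown by symbol and Anxa8 in its own panel on a wider axis. The 4 points of Anxa4 lie between -0.92 and -0.60, and those of Anxa7 lie on both sides of 0.

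Levels of different annexins were compared per kb of exon, using the merged exons of the GENCODE M21 annotation. These lengths may not match the isoforms present in glomeruli. In Cosmc KO the order was Anxa5 (6742 ± 535 per kb), Anxa2 (5713 ± 597), Anxa1 (4029 ± 572), Anxa6 (3247 ± 129), Anxa3 (2196 ± 387), Anxa7 (1003 ± 51.4), Anxa11 (896 ± 93.0), Anxa4 (826 ± 105) and Anxa8 (36.6 ± 24.6). In controls it was Anxa2 (6130 ± 722), Anxa5 (5681 ± 387), Anxa1 (2842 ± 223), Anxa6 (2526 ± 139), Anxa3 (1889 ± 107), Anxa4 (1391 ± 130), Anxa7 (995 ± 34.5), Anxa11 (719 ± 48.7) and Anxa8 (0.958 ± 0.688, SD in all cases). Anxa4 was thus eighth in Cosmc KO and sixth in controls. In the Cosmc KO libraries Anxa5 was above Anxa2 in 4 of 4, while in controls Anxa2 was above Anxa5 in 4 of 5. The ranges of these neighbours overlapped in both groups, as did those of Anxa7 with Anxa11 and of Anxa11 with Anxa4 in Cosmc KO, and of Anxa1 with Anxa6 in controls.

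The 9 annexins summed to 22855 to 27422 per kb in Cosmc KO and 21366 to 24216 per kb in controls, with overlap between the groups. Within that sum Anxa4 made up 3.18 to 3.56% in Cosmc KO and 5.72 to 6.55% in controls. The share of Anxa2 was 22.3 to 24.0% in Cosmc KO and 26.4 to 30.6% in controls, and that of Anxa1 14.9 to 17.8% in Cosmc KO and 11.04 to 14.4% in controls. None of these 3 ranges overlapped between the groups. The Anxa7 share was 3.93 to 4.24% in Cosmc KO and 4.33 to 4.67% in controls, also without overlap. Anxa5 overlapped, at 26.3 to 29.0% in Cosmc KO and 24.7 to 27.4% in controls. Shares of a sum depend on each other, and no test was made of them.

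**Figure D4:**
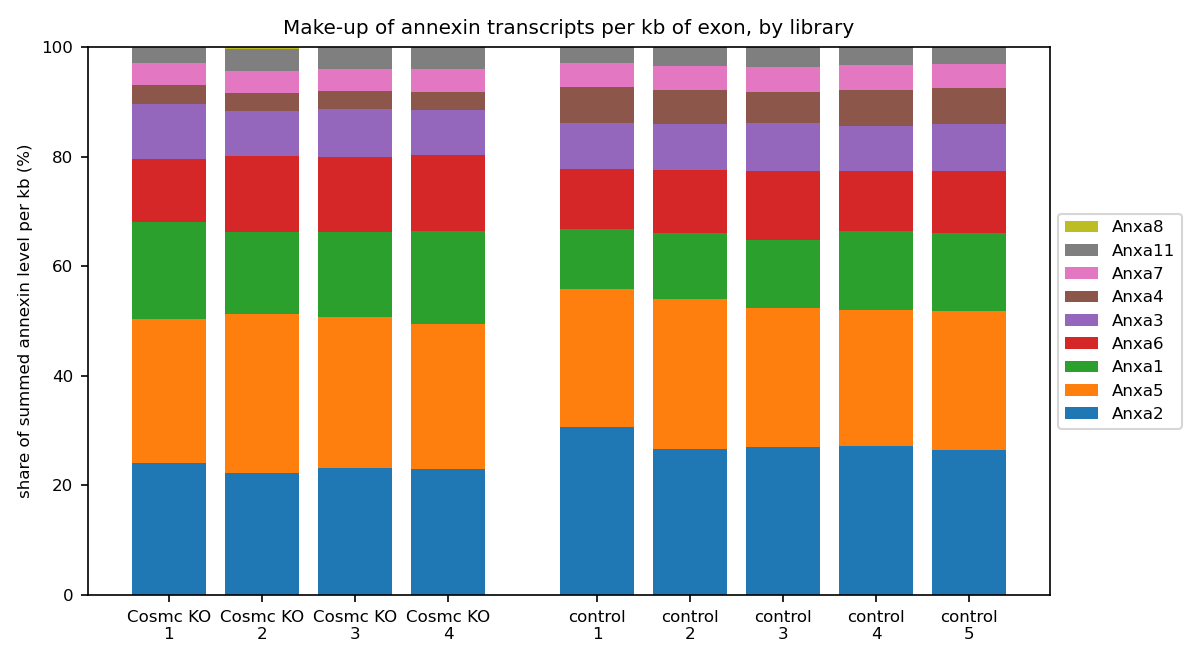
Share of each annexin in the summed annexin level per kb of exon, in percent, with the 4 Cosmc KO libraries at the left and the 5 controls at the right. The Anxa4 segment is at most 3.56% in Cosmc KO and at least 5.72% in controls, and Anxa2 is at most 24.0% in Cosmc KO and at least 26.4% in controls.

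Partner proteins were examined as a list of 14 genes, of which 13 are in the table. S100a6 (calcyclin, an S100 protein that binds several annexins) rose, 0 of the 13 fell, and the other 12 were not called, where 4.16% of all tested genes rose and 3.58% fell. A single call among 13 genes is near that background. S100a6 read 4020.5, 6258, 4432 and 3145 in Cosmc KO 1 to 4, against 1712.5, 1635, 1952, 1552 and 1602 in controls 1 to 5, without overlap (log2 fold change 1.36 ± 0.17, adjusted p = 0.00186). S100a10 and S100a11 were not called. S100a10, a partner of Anxa2, averaged 7723 ± 1253 in Cosmc KO and 6528 ± 644 in controls (SD, n = 4 and 5), with a 95% interval of -0.04 to 0.51 for its log2 fold change. S100a11, a partner of Anxa1, averaged 10771 ± 733 in Cosmc KO and 9709 ± 1221 in controls, with an interval of -0.07 to 0.38. The phospholipase A2 gene Pla2g4a, whose product Anxa1 is known to restrain, averaged 3457 ± 772 in Cosmc KO and 2340 ± 398 in controls. It did not pass in the main limma test (log2 fold change 0.56 ± 0.17, adjusted p = 0.0727). It passed with the replicate block, which called 2 partners higher, where it called 9.59% of all tested genes higher. Pla2g4a and S100a4 both passed with DESeq2 and with age as a factor, which called 8.55% and 11.9% of all tested genes higher. S100a4 also passed with the tubule covariate, but not in the main limma test (0.38 ± 0.12, adjusted p = 0.0896). The authors' deposited table, from the same libraries, calls both higher. Fpr1 and Fpr2, formyl peptide receptors of which the second is the receptor for Anxa1, were low. Fpr1 averaged 11.8 ± 6.40 in Cosmc KO and 11.5 ± 2.18 in controls, and Fpr2 averaged 19.5 ± 7.45 in Cosmc KO and 24.0 ± 12.3 in controls. The median log2 fold change of the partner list was 0.08.

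Other genes of plasma membrane repair gave no call among the 9 of 10 listed that are in the table, with log2 fold changes of -0.24 to 0.26 and a median of 0.04. Chmp4b, an ESCRT subunit, was the member whose groups did not overlap (8237 ± 710 in Cosmc KO and 6969 ± 335 in controls, log2 fold change 0.24 ± 0.08, adjusted p = 0.0908), and DESeq2, which called 16% of tested genes, called it. Non-overlap in either direction was found for 11.9% of tested genes. Capns1, the small subunit of calpain, averaged 13397 ± 1059 in Cosmc KO and 11171 ± 1072 in controls (log2 fold change 0.26 ± 0.09, adjusted p = 0.111). Both genes passed without Cosmc KO 1, where 29.1% of all tested genes were called, so that 2 of 9 is no more than the background.

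The genes whose values followed each annexin most closely were taken among 12094 tested genes with a mean of at least 100, by Pearson correlation of log2(value + 1) over all 9 libraries, which share that group difference, so the r values describe these libraries only. For Anxa4 they were Lrrc1 (r = 0.99), Pde4dip (0.98) and Ncam1 (0.98). Those of Anxa8 were Ankrd1 (0.98), Slc24a3 (0.98) and Lcn2 (0.98), those of Anxa6 were Cd14 (0.99), Pdgfa (0.98) and Rhod (0.98), and those of Anxa1 were Tnfsf15 (0.97), Tnfaip3 (0.97) and Abra (0.96). Anxa11 was followed by Card19 (0.99), Gas6 (0.99) and Sod3 (0.98). Anxa5 was followed by Tmed9 (0.97), Snhg18 (0.96) and Spcs1 (0.95), and Anxa3 by Fam174b (0.96), Morf4l2 (0.96) and Tmed10 (0.95). The closest to Anxa2 were Rit1 (0.96), Prpf8 (0.95) and Fbxw11 (0.95), and to Anxa7 Rcn1 (0.95), Dgkg (0.95) and Dubr (0.94).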

How the data were processed

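Poly(A) RNA-seq of glomeruli from 4 Cosmc KO and 5 control mice was analysed as deposited. Libraries carry separate animal numbers, so p-values measure the spread between these animals. Build GRCm38, the aligner STAR (2.5.2b), Subread (1.5.2) with featureCounts, and DESeq2 are listed in the submitters' processing notes. The annotation release and counting strand are not given in the sources used here. The deposited sample values are a signal, namely read counts per gene scaled by the authors with 1 size factor for each library, as the values themselves show. The deposited table also holds a mean signal, log2 fold changes with standard errors, a Wald score, and p-values and adjusted p-values, all made by the authors. In every library 100% of values were whole multiples of a step to within 0.01 of it, so reads were recovered. For control 3 the size factor was 0.999, and edgeR was therefore also run without it. The lowest chi-square per degree of freedom between any 2 libraries was 26.1, so all 9 were kept.

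The main test was limma 3.58.1 in R 4.3.3 on log2(value + 1), with the prior variance following mean expression and group as the only term, over genes that reached a value of 10 in 4 or more libraries, with Benjamini-Hochberg adjusted p under 0.05 called. The log2(value + 1) scale understates changes of low genes such as Anxa8. Fits were also run on simulated counts, with larger changes than most annexins showed, the same dispersion for every gene and no difference in cell content. That run does not show how well changes as small as most of those here are called. Alternatives were edgeR 4.0.16 (quasi-likelihood, TMM), DESeq2 1.42.0, TMM scaling, pseudocounts of 0.5 and 4, other filters, age as a factor, Cre-carrying controls only, a proximal tubule covariate, a replicate block, and leaving out libraries. Of these, 3 were chosen after seeing the data: edgeR without control 3, leaving out Cosmc KO 2 and 3 together, and, for Anxa8, leaving out a Cosmc KO library with no filter. Cosmc KO and control animals numbered 1 to 4 share an age in the labels, and deviations from group means correlated at 0.54, 0.51, 0.34 and 0.27 within these pairs, so the numbers were taken as pairs. Of the 4, Cosmc KO 3 and Cosmc KO 4 correlated more with another control (0.53 and 0.33). Genes named are the 9 annexins, C1galt1c1, called members of the partner and repair lists, and the 3 genes most correlated with each annexin; other partners, repair genes and markers named were picked with their values known. The members and lists were chosen with earlier results of these data known.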

Additional observations from a re-analysis of the deposited data

Results flagged for a closer look

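A single library lay far from the rest of its group in 3 of 36 group-by-measure combinations examined, where chance gives about 1 in 20. Anxa2 read 27651 in control 1, against 21226 to 22150 in the other 4 controls. Anxa7 read 6464 in Cosmc KO 1, against 5807 to 5918 in the other 3 Cosmc KO libraries. The summed parietal epithelial markers were 19557 in Cosmc KO 1 and 15356 to 16064 in Cosmc KO 2 to 4. Control 1 and Cosmc KO 1 are the animals aged 35 days.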

How the results depend on the processing

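Of 22 alternatives per gene (20 for Anxa8), none reversed a called annexin. Anxa4, Anxa8 and S100a6 were called in all that tested them, with ranges of -0.84 to -0.62, 3.46 to 5.28 and 1.08 to 1.51. When a Cosmc KO library was left out, the filter dropped Anxa8; with no filter it stayed called (adjusted p = 0.00255 to 0.00853). Anxa1 and Anxa6 lost their call in 2 and 4 alternatives. Of the uncalled genes, Anxa2 changed sign with the tubule covariate (0.0061), and Anxa7 with TMM scaling (-0.0093), edgeR (-0.0080), edgeR with control 3 left out (-0.013) and the replicate block (-0.0041), and ranged from -0.025 to 0.029 without single libraries. Genes called numbered 1298 in the main test, 2679 with DESeq2, 2793 with the replicate block, 3652 with age as a factor, 428 with the Cre-carrying controls only, 826 with the tubule covariate, 267 with Cosmc KO 2 and 3 both left out, 4850 without Cosmc KO 1, 473 without Cosmc KO 3, and fewer than 1298 without any other single library. Annexins called higher numbered 3, and 5 with DESeq2 or age as a factor. They numbered 2 with the tubule covariate or the filter of 1 CPM, and 1 with the Cre-carrying controls only or with Cosmc KO 2 and 3 left out. Anxa8 was dropped by the filter in the 1 CPM setting and with Cosmc KO 2 and 3 left out. Without single libraries the annexins called higher numbered 1 to 3, and 1 annexin was called lower throughout. Partners called higher numbered 3 with DESeq2 or age as a factor and 2 with the replicate block or the tubule covariate; 0 to 1 were called lower and 0 to 2 repair genes called without single libraries, and 1 repair gene with DESeq2. The replicate block changed no call of an annexin. Causes of these shifts were not tested. Low counts limit Anxa8, with 8 reads in all controls together.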

Other observations

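Anxa9 and Anxa13 are the other annexin genes in the table. Anxa9 read 58.8, 81.6, 76.4 and 84.0 in Cosmc KO 1 to 4, against 63.5, 54.7, 51.1, 54.7 and 45.3 in controls 1 to 5, with Cosmc KO 1 inside the control range (log2 fold change 0.47 ± 0.18, adjusted p = 0.133 in limma). Its exons overlap those of Mindy1 and 6330562C20Rik. Anxa13 was too low for the test, with 5, 55, 25 and 16 reads in Cosmc KO 1 to 4, against 2, 7, 4, 7 and 3 reads in controls 1 to 5. The highest counts were in Cosmc KO 2 and 3, which also had the highest proximal tubule sums (610810 and 498041). Their part in the result was not tested.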
